A study of Saccharomyces cerevisiae with 8 samples.

Results

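The comparison described here sets Mcm6-SuOn cells against Mcm6-ctrl cells at 0 min, before release from a cdc7-4 block, when both cultures were held at the border of G1 and S phase. Its members are 23511 of the 24133 genomic windows in the files, those in which the read counts of both 0 min libraries add up to at least 50, and its samples are 2 of the 8 libraries of the series. The count in each window was divided by the median count of its library, which gives a level, and the level in Mcm6-SuOn was divided by the level in Mcm6-ctrl, which gives a ratio. Genomic DNA was sequenced, so that a level is a relative read depth and not an expression value. It depends on copy number, and also on mappability and base composition, which were not corrected for.

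Mcm6-SuOn cells were diploid yeast of the W303 background with the genotype cdc7-4/cdc7-4, 1 copy of Mcm6-SuOn marked with KAN, 1 copy of Mcm6-aid marked with HIS3, and 1 copy of ADH1-TIR marked with URA. Mcm6-ctrl cells had Mcm6-ctrl::KAN in place of Mcm6-SuOn::KAN and were otherwise labelled alike. Both genotypes were thus homozygous for the temperature-sensitive kinase allele and carried Mcm6-aid, which is degraded when auxin is added because the TIR protein is present. Both were grown in YPD at 24 °C, held with nocodazole, given 1 mM of the auxin IAA, and then warmed to 37 °C, where the cdc7-4 kinase does not work. The 0 min samples were taken from these arrested cultures, and the later ones after cooling to 24 °C. Each genotype carried a single strain ID at all 4 times, 0, 15, 30 and 40 min, with 1 library at each, so that genotype and strain isolate cannot be told apart. With 1 library per group, differences were not checked in replicates and were not tested. Intervals are exact binomial intervals at a confidence level of 95% and cover counting error only, since reads that carry no molecular identifier do not count molecules.

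Mcm6 is a subunit of the MCM helicase, which is loaded at replication origins before S phase, and Cdc7 is the kinase that activates the loaded helicase so that origins fire. A cdc7-4 block therefore holds cells before firing, and in unreplicated cells every locus of a chromosome is present in the same number of copies. As S phase proceeds, DNA near early origins is copied first and late regions, many of which lie near chromosome ends, are copied last, so that read depth along a chromosome reads out replication. A 0 min library is also the denominator of every later profile of its genotype, which is why differences between the 0 min libraries bear on the rest of the series. Gains and losses of chromosomes or chromosome parts are common in laboratory yeast strains and are seen as steps of level along a chromosome. In a diploid, 1 extra copy of a stretch gives a level of 1.5 and 1 lost copy a level of 0.5.

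Depth, counted in windows that do not overlap, was 18481153 reads in Mcm6-SuOn and 15479946 in Mcm6-ctrl at 0 min, with median counts of 1578 and 1331 per window. For the 6 later libraries, counts recovered from the deposited ratios had window medians between 1185 and 2014. The 622 windows left out held at most 32 reads in Mcm6-SuOn and at most 28 in Mcm6-ctrl. In 437 of them both libraries had no read. Just under the minimum, the 6 windows with summed counts of 45 to 49 had ratios between 0.542 and 1.59, and just above it the 3 windows with 50 to 54 had ratios between 1.1 and 1.55.

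The Mcm6-ctrl library at 0 min differed more than any other library from the mean of the remaining 7. In bins of 10 kb, with chromosome III left out, its log2 level differed from the mean of the other 7 libraries with an SD of 0.152 over 1127 bins, against 0.0592 for Mcm6-SuOn at 0 min and 0.0638 to 0.104 for the 6 later libraries. Mcm6-ctrl at 0 min was nonetheless similar to Mcm6-SuOn at 40 min, with r = 0.853 over the same bins. Every result below that rests on the ratio at 0 min rests on Mcm6-ctrl at 0 min too. Values with the later control libraries in its place are also given. The 6 later libraries were taken after release, so neither the SD nor those values separate library from time.

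Over most of the genome both genotypes had similar levels before release, and windows past 1.5-fold were nearly all higher in Mcm6-SuOn. Of the 23511 windows, 383 (1.63%) had a ratio above 1.5 and 4 (0.017%) a ratio below its inverse. The middle of the distribution was narrow, with a median ratio of 0.996, quartiles of 0.940 and 1.07, and 70.3% of windows between 0.9 and 1.1. Its upper tail was longer than its lower tail, since the 1st percentile was 0.834 and the 99th 1.71. The 4 lower windows had 27 to 43 reads in Mcm6-SuOn and 36 to 59 in Mcm6-ctrl, so that none of them was a well-covered window.

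The windows with a ratio above 1.5 lay on part of chromosome III and near chromosome ends. Chromosome III held 180 of the 383. Of the other 203, 151 lay within 30 kb of a chromosome end, which was 10.1% of the 1502 windows tested there. A further 41 lay between 30 and 75 kb (1.53% of 2685), and 11 lay farther in (0.0588% of 18699). After chromosome III, most such windows were on chromosomes I with 58, IX with 36, XIII with 33 and XII with 20, and chromosomes VII and XI had none.

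Small differences were wide rather than local. Summed over bins of 10 kb, the log2 ratio had an SD of 0.161 over 1188 bins, where counting error alone gives 0.0179, and 78.5% of bins lay outside their own 95% counting interval around 0. The SD was 0.169 in bins of 5 kb and 0.142 in bins of 50 kb, while the counting error was 0.0260 and 0.00784 at those sizes. Adjacent bins thus deviated together. A ratio of at least 1.1 was found in 181 bins (15.2%) and a ratio of at most 0.9 in 64 (5.39%). In the later libraries fewer bins reached 1.1, with 10 (0.863%), 29 (2.5%) and 75 (6.47%) of 1159 at 15, 30 and 40 min, and bins at 0.9 or lower numbered 1 (0.0863%), 15 (1.29%) and 61 (5.26%).

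No whole chromosome stood at the level that a gained or a lost copy would give. Chromosome levels, as medians over windows, ran between 0.958 and 1.19 in Mcm6-SuOn and between 0.834 and 1.23 in Mcm6-ctrl, and in all 8 libraries together between 0.834 and 1.27. Read depth gives levels relative to the library median, so that the ploidy of the whole genome, diploid by the paired alleles in the labels, cannot be read from it.

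**Figure D1:**
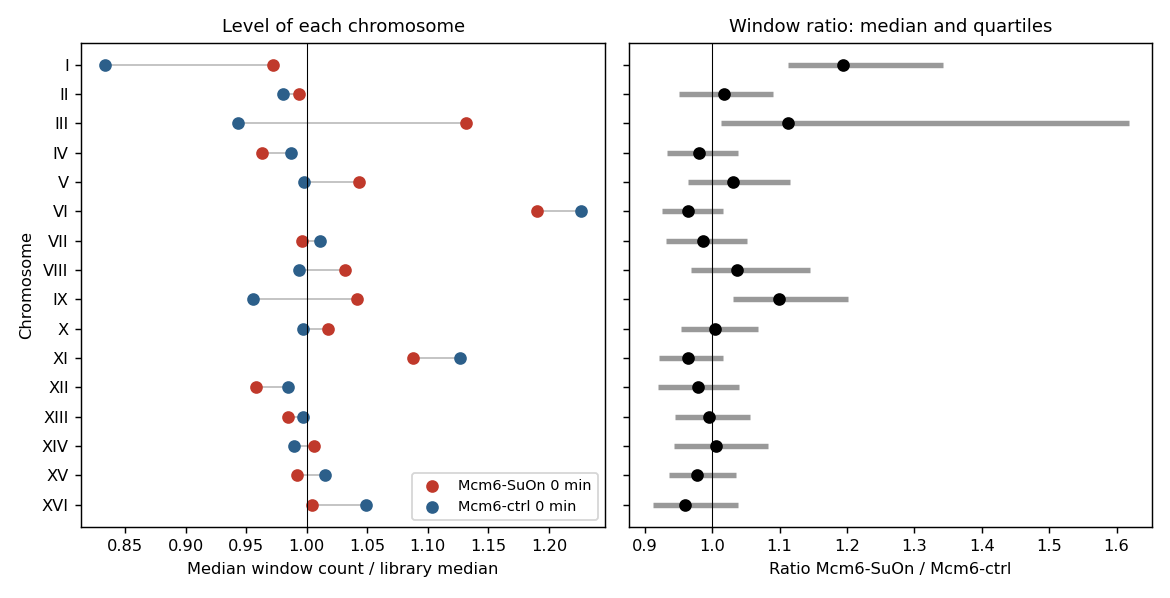
Median level of each of the 16 chromosomes at 0 min in Mcm6-SuOn and Mcm6-ctrl (left, window count over the library median) and the ratio of the genotypes over the windows of each chromosome (right, point for the median, bar for the quartiles). Chromosome VI is the highest in both libraries at 1.19 and 1.23, and chromosomes I, III and IX have the highest ratios.

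Chromosome VI was the highest chromosome in both genotypes, with 1.19 in Mcm6-SuOn and 1.23 in Mcm6-ctrl. It was raised in all 8 libraries, with levels between 1.16 and 1.27, and chromosome XI was also above 1, at 1.09 in Mcm6-SuOn and 1.13 in Mcm6-ctrl. The levels of VI and XI were above 1 in both strains, and the ratios of the genotypes were 0.963 and 0.964. Chromosome VI was not raised evenly. In pieces of 30 kb, the first 30 kb stood at 1.08 in Mcm6-SuOn and 1.11 in Mcm6-ctrl, and the piece from 240001 to 270000 at 1.40 and 1.52.

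Chromosomes I, III and IX had the largest ratios. Chromosome I had a level of 0.972 in Mcm6-SuOn and 0.834 in Mcm6-ctrl, with a median ratio of 1.19 and quartiles of 1.11 and 1.34. Chromosome IX had 1.04 and 0.956 with a ratio of 1.099, and chromosome III had 1.13 and 0.944 with a ratio of 1.11. The upper quartile of chromosome III, 1.62, was the highest upper quartile of the 16. The lowest ratio was 0.959 on chromosome XVI, and the other 12 chromosomes lay between 0.963 and 1.04.

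Short chromosomes tended to have higher ratios at 0 min. Over the 16 chromosomes, Pearson's r between the median ratio and the log10 of chromosome length was -0.69 and Spearman's rho with length was -0.55. These are descriptions of 16 points that share both libraries. A short chromosome has more of its windows near an end, 62.9% within 75 kb on chromosome I against 9.29% on chromosome IV. In windows more than 75 kb from an end, chromosome I still had the highest ratio, 1.15, and chromosome XVI the lowest, 0.944. Pearson's r with length was -0.67 in these inner windows. The median ratio still fell with distance there, with 1.04 between 75 and 100 kb and 0.966 between 200 and 300 kb. Inner windows of short chromosomes lie nearer an end, so this r does not separate length from distance to an end. Chromosome VI, although short, had 0.957 in its inner windows. The later ratios did not share the trend, with Pearson's r of 0.24, -0.33 and 0.66 at 15, 30 and 40 min, and chromosome I had ratios of 0.982, 0.968 and 0.884. With the mean of the later control libraries in place of Mcm6-ctrl at 0 min, r was 0.07 and the ratio of chromosome I 0.949. For the chromosome levels of each 0 min library by itself, Pearson's r with log10 length was -0.64 in Mcm6-SuOn and 0.06 in Mcm6-ctrl.

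The longest single difference was a stretch of chromosome III. The run of adjacent windows with a ratio above 1.5 covered this chromosome from 203501 to 293000 (build sacCer2), with 178 windows, 196122 reads in Mcm6-SuOn and 92387 in Mcm6-ctrl, and a ratio of 1.79 (1.78 to 1.80). The next run, 202001 to 203500, ended where it began. Levels in the run ranged from 1.13 to 1.74 with a median of 1.37 in Mcm6-SuOn, and from 0.579 to 1.09 with a median of 0.743 in Mcm6-ctrl. All 178 windows were above 1 in Mcm6-SuOn and 165 were below 1 in Mcm6-ctrl, so that the ratio was made of a high level in one library and a low level in the other.

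**Figure D2:**
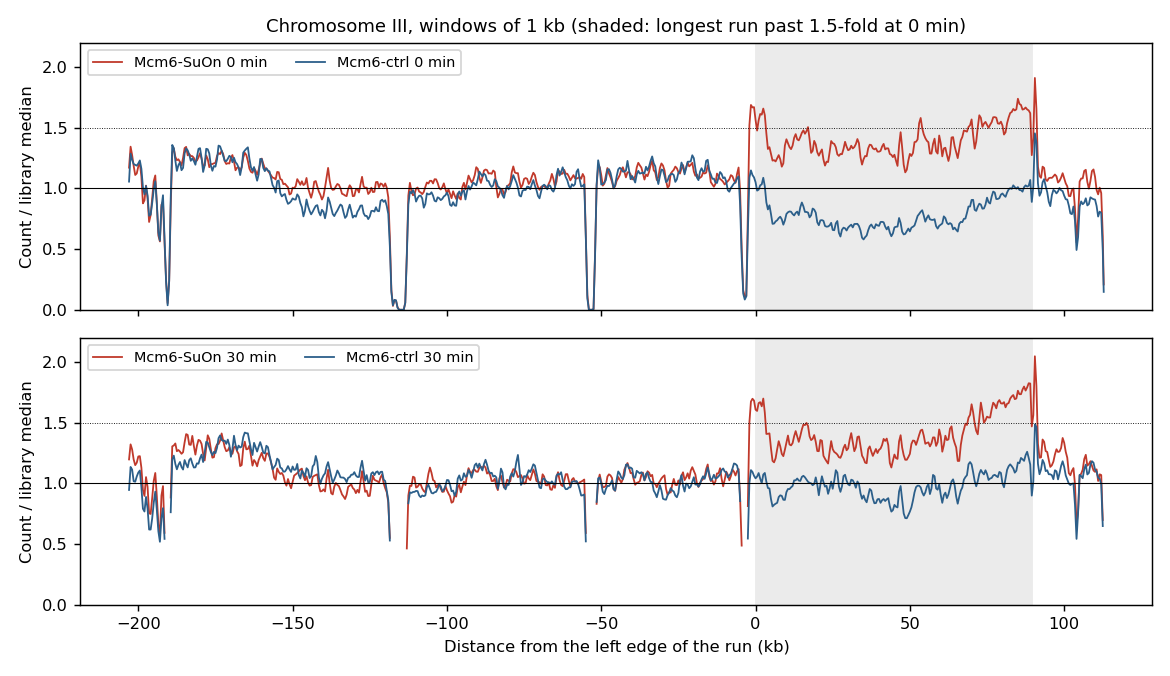
Level of each 1 kb window of chromosome III (y axis, count over the library median) against distance from the left edge of the longest run (x axis, kb), in Mcm6-SuOn and Mcm6-ctrl at 0 min (top) and 30 min (bottom), with gaps where windows are not listed and a dotted line at 1.5. The shaded run has a median level of 1.37 in Mcm6-SuOn and 0.743 in Mcm6-ctrl at 0 min, and 1.36 and 0.982 at 30 min, with a sharp step at both sides in Mcm6-SuOn.

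Between the inside of the run and the sequence 5 kb outside it, the level changed by a step in Mcm6-SuOn and hardly at all in Mcm6-ctrl. The 4 kb just inside the left border had a level of 1.6 in Mcm6-SuOn, and the 4 kb that lie 5 kb outside it had 1.1, a step of 1.46-fold. In Mcm6-ctrl the same step was 0.978. At the right border the step was 1.52 in Mcm6-SuOn, with levels of 1.65 inside and 1.09 outside, and 1.06 in Mcm6-ctrl. Each step compares levels within 1 library. The 5 kb next to each border did not enter the steps, and both libraries changed sharply there. The window from 293501 to 294500 had levels of 1.91 in Mcm6-SuOn and 1.45 in Mcm6-ctrl. That from 199501 to 200500 had 0.109 and 0.0841. The borders were set by the ratio of the genotypes, so the levels of both libraries fixed where the steps were taken. The widths were set with the values known.

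The later libraries, which did not enter the choice of the run, showed the same steps. At 15, 30 and 40 min the left step was 1.41, 1.49 and 1.35 in Mcm6-SuOn, and 0.916, 0.944 and 0.996 in Mcm6-ctrl. The right step was 1.55, 1.5 and 1.46 in Mcm6-SuOn, and 1.04, 1.13 and 1.05 in Mcm6-ctrl. At these later times, every step in Mcm6-SuOn libraries was larger than every step in Mcm6-ctrl libraries. All later Mcm6-SuOn libraries came from the same strain as that at 0 min, so they are repeated samples of 1 strain and not independent strains.

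Inside the run, the level of both genotypes was lower in the middle than at the borders at 0 min, and the dip was deeper in Mcm6-ctrl. The piece from 230001 to 240000 had a level of 1.32 in Mcm6-SuOn and 0.671 in Mcm6-ctrl, with a ratio of 1.99 (1.94 to 2.04). The piece from 280001 to 290000, near the right border, had 1.59 and 0.974 with a ratio of 1.65 (1.61 to 1.68). Over the 4 times, 0, 15, 30 and 40 min, the median level of the run was 1.37, 1.40, 1.36 and 1.12 in Mcm6-SuOn, and 0.743, 1.00, 0.982 and 0.865 in Mcm6-ctrl. The median ratio of the genotypes was 1.80 at 0 min and 1.42, 1.44 and 1.33 at the later times, with Mcm6-SuOn higher in all 178 windows at each. The value at 0 min was therefore larger than at any later time, and the step at the borders was not.

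The rest of chromosome III differed less. Left of the run the median ratio was 1.04 at 0 min and between 0.962 and 0.992 later. In that part, the piece from 70001 to 80000 had the highest ratio of the 10 kb pieces, with levels of 0.994 in Mcm6-SuOn and 0.796 in Mcm6-ctrl. Right of the run the median ratio was 1.17 at 0 min and between 1.01 and 1.11 later. Chromosome III carries the mating-type locus MAT and the silent copies HML and HMR, which serve as templates when yeast switches mating type. None of them was placed against the run, because no annotation of this build was used here. A stretch of low counts lay just left of the run, where the window from 199501 to 200500 had 172 reads in Mcm6-SuOn and 112 in Mcm6-ctrl, levels of 0.109 and 0.0841.

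Near chromosome ends, Mcm6-ctrl had fewer reads than Mcm6-SuOn. Between 20 and 30 kb from the nearest end, the median level was 1.01 in Mcm6-SuOn and 0.838 in Mcm6-ctrl, with a median ratio of 1.19 (quartiles 1.06 and 1.30, 631 windows). The ratio was not larger farther out. In the outermost 5 kb it was 1.14 over 174 windows, and 1.01 in the 92 windows there that all 8 libraries list. Between 50 and 75 kb the levels were 1.02 and 0.962 with a ratio of 1.06, and between 100 and 150 kb they were 1.01 and 0.998 with a ratio of 1.02. From 200 to 300 kb the order was turned, with 1.03 in Mcm6-SuOn and 1.06 in Mcm6-ctrl and a ratio of 0.966. The level in Mcm6-SuOn thus stayed close to 1 from 10 kb inwards, and the level in Mcm6-ctrl climbed over the outer 200 kb.

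**Figure D3:**
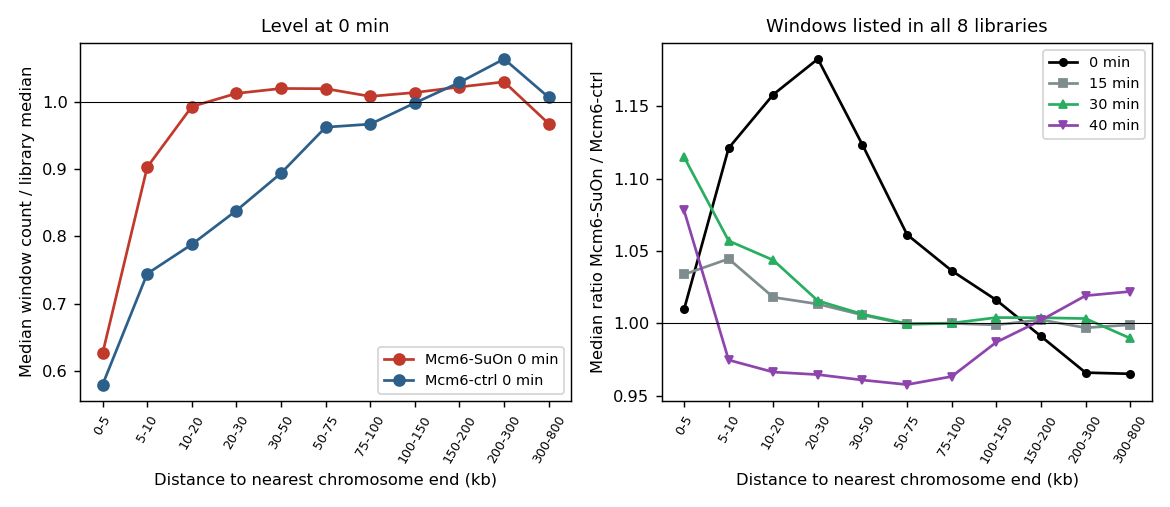
Left, median level at 0 min (y axis, count over the library median) in Mcm6-SuOn and Mcm6-ctrl by distance to the nearest chromosome end (x axis, classes in kb). Right, median ratio of the genotypes at 0, 15, 30 and 40 min in the windows listed in all 8 libraries, where the ratio at 20 to 30 kb is 1.18, 1.01, 1.02 and 0.965 in that order.

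Set against the interior of the genome, windows within 75 kb of an end were higher by 0.17 in the log2 ratio of Mcm6-SuOn over Mcm6-ctrl (4486 windows against 19025). By library, the log2 difference between end and interior was 0.02 in Mcm6-SuOn and -0.17 in Mcm6-ctrl. The later ratios did not show the same difference, with 0.01, 0.02 and -0.07 at 15, 30 and 40 min. At these times the ends of both genotypes stood above the interior, by 0.11, 0.13 and 0.03 in Mcm6-SuOn and by 0.09, 0.12 and 0.08 in Mcm6-ctrl. The later values use the windows listed in all 8 libraries, 4127 near ends and 18716 farther in. By these genome-wide medians, Mcm6-ctrl at 0 min was the only library of the 8 with a lower level near ends than in the interior. Taken end by end at 0 min, Mcm6-SuOn was also below its chromosome's interior at 17 of the 32 ends, and Mcm6-ctrl at 25.

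The end difference was present at most of the 32 chromosome ends but unequal in size. It was above 0 at 29 of the 32 ends, with a median of 0.19 and a range from -0.06 to 0.67. The level in Mcm6-SuOn was above that in Mcm6-ctrl at 28 ends. Levels ran from 0.789 to 1.33 with a median of 1.02 in Mcm6-SuOn, and from 0.497 to 1.36 with a median of 0.896 in Mcm6-ctrl, so the ranges overlapped. The ratio declined inwards over the first 100 kb at 24 ends, with a median slope of -0.24 log2 units per 100 kb.

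The 5 ends with the largest difference were the right end of III and, after it, the left end of VIII, the right end of I, the right end of XIII and the left end of IX. The right end of III, at 0.67, holds most of the raised run. The left end of VIII had levels of 0.944 in Mcm6-SuOn and 0.724 in Mcm6-ctrl and a difference of 0.40. The right end of I had the lowest levels of all, 0.789 and 0.497, with a difference of 0.36, followed by the right end of XIII at 0.35 and the left end of IX at 0.30. In these last 4, both libraries had fewer reads at the end than in the interior, and Mcm6-ctrl had the larger deficit. At the same 4 ends the difference was between -0.01 and 0.04 at 15 min, between -0.13 and -0.03 at 30 min, and between -0.22 and -0.10 at 40 min.

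The 5 ends with the smallest difference were the left ends of III, I, IV and XI and the right end of VI, with values from -0.06 to 0.03. The left end of I had levels of 1.08 in Mcm6-SuOn and 0.944 in Mcm6-ctrl, and its difference was close to 0, the ratio being 1.15 both at this end and in the interior. The right end of VI had 1.30 in Mcm6-SuOn and 1.36 in Mcm6-ctrl. The 2 ends of 1 chromosome could differ, as on XIII, where the right end had 0.35 and the left end 0.04.

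The 3 longest runs after that on chromosome III lay near ends and did not reach 1.5 in any later library pair. The run at chromosome XIII 902001 to 918000 had 19239 reads in Mcm6-SuOn and 9201 in Mcm6-ctrl and a ratio of 1.76 (1.72 to 1.81). In its 14 windows that all 8 libraries list, the median ratio was 1.07, 0.907 and 0.781 at 15, 30 and 40 min. The run at chromosome IX 18501 to 32500 had levels of 0.850 in Mcm6-SuOn and 0.456 in Mcm6-ctrl and a ratio of 1.74 (1.70 to 1.79), and 1.07, 1.00 and 0.842 later in 15 listed windows. On chromosome I, the run from 192501 to 199500 had a ratio of 1.67 (1.603 to 1.74), and 0.996, 0.916 and 0.696 later in 8 listed windows. The order of the genotypes in these 3 runs was thus turned by 40 min.

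The other runs among the 10 longest rested on fewer reads. Chromosome I 205001 to 211500 had 3344 reads in Mcm6-SuOn and 1205 in Mcm6-ctrl (ratio 2.34, 2.19 to 2.50), and 221501 to 226500 had 983 and 459 (1.81, 1.62 to 2.02). Chromosome VI 1 to 5000 had a ratio of 1.82, chromosome IX 35001 to 38500 one of 1.59, chromosome XII 10001 to 13500 one of 1.85, and chromosome XVI 945001 to 948062 one of 2.63 from 406 and 130 reads. All but that on IX had levels under 0.5 in both libraries. The 34 runs above 1.5 held 361 windows, and no run was found below the inverse.

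Of the 34 runs, 4 lay more than 75 kb from an end, 1 of them the short run beside the long one on III. The run at chromosome VIII 213001 to 215500 had 1976 reads in Mcm6-SuOn and 736 in Mcm6-ctrl, with levels of 0.626 and 0.276 and a ratio of 2.26 (2.08 to 2.47). Of its 4 windows, 1 was listed for both genotypes at 15 min, with a ratio of 1.92, and 1 at 30 min, with 1.99, and none at 40 min. Chromosome VIII carries CUP1-1 and CUP1-2, metallothionein genes that lie in a tandem array and vary in copy number between yeast strains, but they were not placed against the run. The runs at chromosome IV 381001 to 382500 and 383501 to 385000 had ratios of 1.52 and 1.53. These 3 runs are named with their values known, outside the rule for named regions.

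The 5 longest stretches with a ratio of at least 1.1 over adjacent 10 kb bins lay on chromosomes III, I, IX, VIII and IV. After that on III, the longest was chromosome I 100001 to 210000, with 137873 reads in Mcm6-SuOn and 92048 in Mcm6-ctrl, levels of 0.899 and 0.721 and a ratio of 1.26 (1.253 to 1.27). Chromosome IX 20001 to 100000 had 0.954 and 0.771 with a ratio of 1.29, and chromosome VIII 1 to 80000 had 0.949 and 0.728 with 1.31. That on chromosome IV, 1380001 to 1450000, lay 81.9 kb from the end and had 0.895 and 0.749 with a ratio of 1.18 (1.17 to 1.19). In the last 4 of these stretches both levels were below 1 and that in Mcm6-ctrl was the lower, while on III the level was 1.33 in Mcm6-SuOn and 0.788 in Mcm6-ctrl. Within 75 kb of an end, 108 of 218 bins (49.5%) reached 1.1, and farther in 73 of 970 did (7.53%).

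Stretches with a ratio of at most 0.9 lay mostly more than 75 kb from an end, and in the longest of them Mcm6-ctrl was above 1. The longest were chromosome XII 590001 to 660000, with levels of 0.994 in Mcm6-SuOn and 1.14 in Mcm6-ctrl and a ratio of 0.876 (0.868 to 0.885), and XII 670001 to 740000, with 1.01 and 1.15 and a ratio of 0.871. Chromosome VII 823001 to 880000 had levels of 1.12 and 1.28, and chromosome VII 310001 to 360000 had 1.06 and 1.18. Next, chromosome XIV 310001 to 360000 had 1.095 and 1.246, and chromosome XVI 260001 to 310000, of the same length, had 1.07 and 1.21. Of bins more than 75 kb from an end, 58 of 970 (5.98%) were at 0.9 or lower, and of those nearer, 6 of 218 (2.75%). The stretches were chosen by the ratio, so the order of the genotypes within them was fixed by that choice. Over all inner bins without chromosome III, the SD of the log2 level was 0.220 in Mcm6-ctrl and 0.167 in Mcm6-SuOn.

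The likeness of the libraries over 10 kb bins followed time at the later times but not at 0 min. Across 1127 bins outside chromosome III, the levels of Mcm6-SuOn at 0 min correlated with those of Mcm6-ctrl at 0 min at r = 0.814, and with Mcm6-SuOn at 15 min at r = 0.855. Mcm6-ctrl at 0 min correlated best with Mcm6-SuOn at 40 min, at r = 0.853, and with the 3 later libraries of its own genotype at 0.627, 0.295 and 0.572. Each later control library correlated best with Mcm6-SuOn at its own time, at r = 0.932, 0.835 and 0.849 at 15, 30 and 40 min. These correlations are descriptions, since bins share base composition, mappability and depth and are not replicates.

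**Figure D4:**
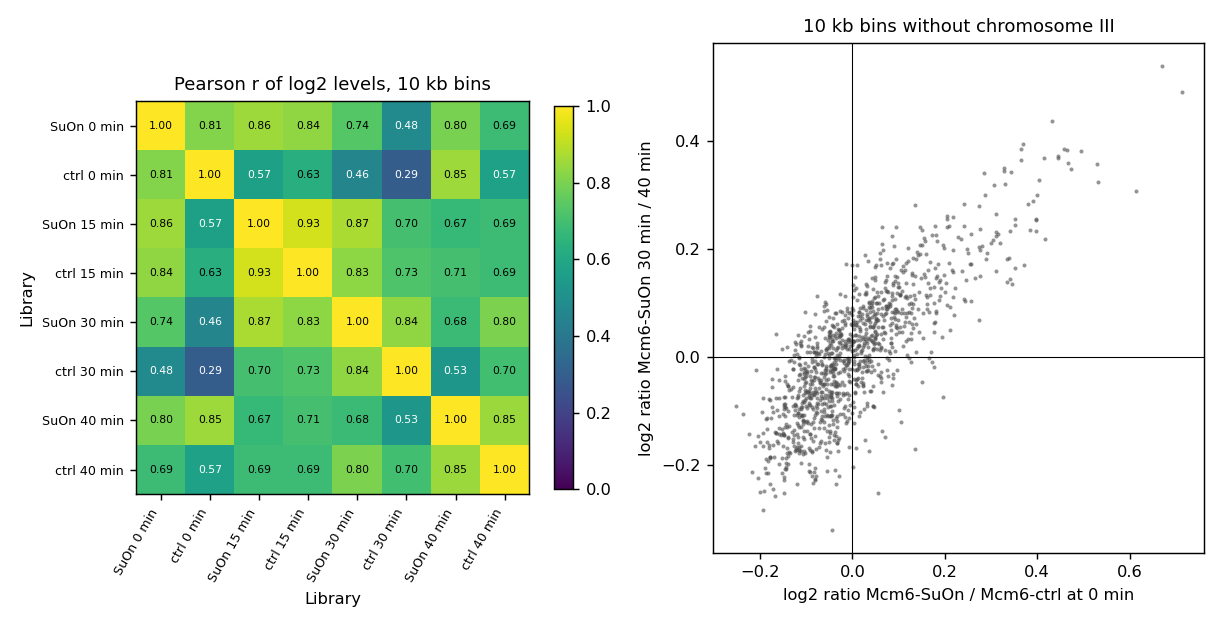
Left, Pearson's r of the log2 levels of each pair of the 8 libraries over 1127 bins of 10 kb outside chromosome III. Right, for the same bins, the log2 ratio of Mcm6-SuOn over Mcm6-ctrl at 0 min (x axis) against the log2 ratio of Mcm6-SuOn at 30 min over 40 min (y axis), which share no library and correlate at r = 0.815.

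Regions with a high ratio at 0 min tended to have a lower read share in Mcm6-SuOn at 40 than at 30 min. The ratio at 0 min correlated at r = 0.815 with the log2 ratio of Mcm6-SuOn at 30 min over 40 min, and at 0.739 with that of 15 min over 40 min, comparisons that hold no 0 min library. With 15 min over 30 min in the same cells it was -0.15. In Mcm6-ctrl, 30 min over 40 min gave 0.369, 15 min over 40 min gave 0.129 and 15 min over 30 min gave -0.29. In the 941 bins more than 75 kb from an end the first value was 0.751. The ratio at 0 min still fell with distance beyond 75 kb, so this value does not separate the relation from distance to an end.

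By level, the 150 bins outside chromosome III with a ratio of at least 1.1 at 0 min had medians of 0.952 in Mcm6-SuOn and 0.808 in Mcm6-ctrl. The same bins stood at 0.994 and 0.973 at 15 min, at 1.003 and 1.0025 at 30 min, and at 0.876 and 0.951 at 40 min. In the 60 bins at 0.9 or lower, the medians were 1.06 in Mcm6-SuOn and 1.20 in Mcm6-ctrl at 0 min, and 1.13 and 1.1 at 40 min. In both classes the order of the genotypes at 40 min was the opposite of that at 0 min. Over all 1127 bins, the ratio at 0 min correlated with that at 15 min at r = 0.358, with that at 30 min at -0.04 and with that at 40 min at -0.66.

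With the later control libraries in place of Mcm6-ctrl at 0 min, every window past 1.5-fold lay on chromosome III. Of 22843 windows listed in all 8 libraries, 257 (1.13%) had a ratio above 1.5 at 0 min, 180 of them on chromosome III. At 15, 30 and 40 min the same windows gave 26 (0.114%), 54 (0.236%) and 8 (0.035%), and 1 window (0.00438%) was lower past the inverse at 40 min. Against the mean level of the 3 later control libraries, Mcm6-SuOn at 0 min had 49 such windows, all 49 on chromosome III, and its ends differed from the interior by -0.07 on the log2 scale, against 0.16 with Mcm6-ctrl at 0 min in the same windows. The median ratio of the chromosome III run was then 1.46. Against the mean of its own later libraries, Mcm6-SuOn at 0 min had no window beyond 1.5-fold in either direction, and Mcm6-ctrl at 0 min had 196 lower windows against the mean of its own, all 196 within 75 kb of an end on chromosomes other than III. The later libraries were put in place as a setting added with the data known. They were taken after release, when read depth also changes with replication, so these values do not separate library from time.

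A single run of windows, chromosome XII 458501 to 461500, stood at 2 or more times the library median, with a median level of 29.2 in Mcm6-SuOn and 27.8 in Mcm6-ctrl, highest windows at 70.0 and 67.8, and a ratio of 1.04 (1.03 to 1.05). Chromosome XII carries the ribosomal RNA gene array. Away from the outer 30 kb, 67 runs were under 0.5 in at least 1 library, of which 38 were so throughout in both, 3 in Mcm6-ctrl alone and 1 in Mcm6-SuOn alone. The longest was chromosome XII 461501 to 490500 with 781 reads in Mcm6-SuOn and 601 in Mcm6-ctrl (ratio 1.096, 0.984 to 1.22), followed by chromosome VII 811001 to 823500 with 1047 and 949 (0.931, 0.851 to 1.02). Some shorter low stretches differed more between the strains. On chromosome I, 189501 to 194500 had a ratio of 1.64 (1.56 to 1.73), 195501 to 197500 one of 1.59 and 160001 to 166500 one of 1.30 (1.19 to 1.42), all within the broad stretch of higher ratio there. Of these, 189501 to 194500 and 195501 to 197500 were under 0.5 in Mcm6-ctrl alone. Choosing stretches that are low in 1 library favours such ratios. Chromosome VIII 212001 to 216500 had 1.55 (1.46 to 1.66), chromosome IV 383001 to 386000 had 1.51 and chromosome IX 391001 to 393000 had 1.45. These were named with their values known.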

How the data were processed

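Genomic DNA from diploid yeast cultures was purified by CsCl ultracentrifugation and made into libraries with a KAPA kit, per the labels' protocols. Coordinates are those of sacCer2, named in the submitters' processing notes. Aligner, read filters and counting program are not given in the sources used here. The deposited 0 min values are raw read counts per window of 1000 bp every 500 bp. The deposited later values used here are a ratio that divides each later window count by its genotype's 0 min count, per the file headers and the values. Later counts were recovered as that ratio times the 0 min count, rounded. Windows with at most 600 counts are listed at 0 and were left out. Columns scaled per chromosome or smoothed were not used.

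Counts were divided by the library median, and ratios are Mcm6-SuOn over Mcm6-ctrl. Read sums use windows that do not overlap. Bins of 10 kb needed at least 5 such windows. Python 3.11.15, numpy 2.4.6, pandas 2.3.3, scipy 1.17.1 and matplotlib 3.10.9 were used. The window calls were also run on simulated counts with counting error alone, in which 200 windows had a known change. The real ratios spread more widely than counting error, so that run does not measure how many real calls are false. With 1 library per group there was no test. Regions named are all chromosomes, the 10 longest runs of at least 2 windows beyond 1.5-fold, the 5 longest runs of bins past 1.1 or 0.9, the most repeated and the longest low stretches, and the 5 ends at either extreme. Members and lists were chosen with earlier results of these data known. No genome or annotation of the build was used, so loci were not placed.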

Additional observations from a re-analysis of the deposited data

How the results depend on the processing

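Windows more than 1.5-fold higher in Mcm6-SuOn numbered 383, and between 258 and 435 with other scalings or count minimums. The number was 190 with every second window, 1344 at the lower threshold tried and 57 at a threshold of 2. Lower windows numbered 4 and depended on low counts: 26 with at least 1 read in each library, 0 with over 600 in each, 2 with every second window, 46 at the lower threshold and 0 at a threshold of 2. The SD over bins was 0.161, and 0.142 with bins of 50 kb, 0.119 without chromosomes III and XII and the outer 30 kb, and 0.151 with over 600 counts. The end difference of 0.17 was 0.23 at 50 kb, 0.15 at 100 kb, 0.15 without the outer 30 kb, 0.21 with means and 0.16 with over 600 counts. The ratio of the chromosome III run, 1.79, was 1.85 in its inner part, and 1.69 scaled by the rest of the chromosome or by windows at the same distance from other ends. Chromosomes with a ratio beyond 1.1-fold numbered 2, and 3 with summed reads. Under the settings so far none of these values changed direction, while the ratios of chromosomes X, XIII and XIV, all close to 1, lay on either side of 1 with summed reads or mean scaling. Settings chosen after seeing the data used the 22843 windows listed in all 8 libraries, which alone gave 257 higher and 0 lower windows and an end difference of 0.16. With the mean of the later control libraries in place of Mcm6-ctrl at 0 min there were 49 higher and 0 lower windows, the end difference turned to -0.0671, the chromosome III run was 1.46 and 0 chromosomes were beyond 1.1-fold. With the mean of the later Mcm6-SuOn libraries in place of that at 0 min there were 290 higher and 0 lower windows, the end difference was 0.21, the run 1.72 and 1 chromosome was beyond 1.1-fold. Both replacements set a library taken before release against libraries taken after it. No paired analysis was possible because each genotype has 1 library per time and no test was made. Depth limits single windows, with a counting SD of 0.0611 in the log2 ratio. The causes of these shifts were not tested.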
